A study of Mus musculus with 3 samples.

Results

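Of the 27998 genes in the count matrix, 9 genes of TGF-β signaling are described here, taken by their symbols. They are the ligand Tgfb1, the receptors Tgfbr1 and Tgfbr2, the signal transducers Smad2, Smad3 and Smad4, the inhibitory Smad7, and corepressors Ski and Skil. The list was chosen with earlier results of these data known. The cells were YFP (+) microglia sorted from lumbar spinal cord, and the mice were Cx3cr1-creER-yfp/+ heterozygotes, given as strain C57BL/6, of both sexes and young or adult. The 3 groups were naive mice, mice at 24 h and mice at 48 h after sciatic nerve transection and ligation. The cords of 3 animals were pooled per group, and 1 library was made from each pool. The methods time all experiments from a first dose of tamoxifen, without saying separately whether these mice received it. All groups carry creER and yfp under the Cx3cr1 promoter, which is active in microglia and also in circulating monocytes. Before capture, all cells were resuspended in serum-free medium that contained human recombinant TGF-β2, IL34 and cholesterol, so ligand was supplied to every library and its part in the values below was not tested.

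The libraries were joined into 1 matrix of unique molecular identifiers (UMIs, each standing for 1 captured transcript), in which the barcode suffixes 1, 2 and 3 tell them apart. The sources used here tie no suffix to a time point, so they are called library 1, library 2 and library 3, and no value is placed in time. With 1 library per group there was no replicate and no test. All intervals are exact 95% intervals that cover counting error only and not the spread between animals. Libraries 1, 2 and 3 held 609, 3591 and 3322 cells with medians of 2218, 5952 and 5742 UMIs per cell, so each cell was thinned at random to 2000 UMIs and shallower cells were left out. This left 408, 3569 and 3284 cells. Values named levels are CPM, UMIs per 1000000 UMIs after thinning. They were not divided by transcript length, and levels were compared between libraries and not between genes. Libraries shared from 3 to 19 cell barcodes in pairs, and 1 barcode was found in all 3. All 10 microglia markers were found in each library, together at 27562, 23307 and 26344 CPM, while no marker list of another cell type exceeded 34.3. Library 3 stood apart in the summed UMIs of 12 genes called early genes here. Their mean sum was 36.8 UMIs per cell, against 2.12 in library 1 and 3.22 in library 2. They were Fos, Fosb, Jun, Junb, Egr1, Ier2, Atf3, Dusp1, Nr4a1 and Zfp36, and the heat shock genes Hspa1a and Hspa1b.

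TGF-β is released in a latent form and, once activated, brings together the type II receptor Tgfbr2 and the type I receptor Tgfbr1. The type I receptor phosphorylates Smad2 and Smad3, which join Smad4, enter the nucleus and regulate transcription. Smad7 shuts the receptor down and is itself a target of the pathway, while Ski and Skil (also called SnoN) hold Smad complexes in a repressed state. In microglia, TGF-β is known for sustaining the adult identity, and genes such as P2ry12 and Sall1 depend on it.

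Both receptors were lower in libraries 2 and 3 than in library 1, and for this reason the sequence just upstream of each is shown. The 250 bases before a RefSeq start are given 5′ to 3′ on the gene's strand in GRCm38.p6, at chr4:47352972-47353221 (plus strand) for Tgfbr1 and chr9:116175364-116175613 (minus strand) for Tgfbr2. The table holds 2 starts for Tgfbr1, and the one shown lies directly before the annotated gene. Capitals mark GGGCGG, a GC box, or CAGAC, the core of a Smad-binding element, on either strand.
Tgfbr1: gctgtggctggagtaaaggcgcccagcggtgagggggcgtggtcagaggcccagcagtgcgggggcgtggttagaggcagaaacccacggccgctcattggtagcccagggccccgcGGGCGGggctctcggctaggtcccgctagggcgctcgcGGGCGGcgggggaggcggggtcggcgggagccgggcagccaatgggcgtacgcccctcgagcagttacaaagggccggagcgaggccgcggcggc
Tgfbr2: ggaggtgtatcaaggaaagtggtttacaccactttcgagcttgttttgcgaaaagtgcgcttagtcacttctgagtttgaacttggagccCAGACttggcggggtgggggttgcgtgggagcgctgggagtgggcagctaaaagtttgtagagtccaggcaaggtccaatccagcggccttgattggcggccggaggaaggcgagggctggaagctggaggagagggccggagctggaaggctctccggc
The Tgfbr1 sequence held GGGCGG at 2 places and no CAGAC, and the Tgfbr2 sequence held CAGAC at 1 place and no GGGCGG, and TATAAA was in neither. The window of the other Tgfbr1 start, which is not shown, held CAGAC at 1 place and no GGGCGG, as the Tgfbr2 window did. GGGCGG was present in 32.7%, CAGAC in 42.2% and TATAAA in 12.4% of 32851 windows of the same length upstream of mouse genes. These letters are a description of the window and not of binding. The promoter table had entries for 5 of the 9 genes (Tgfb1, Tgfbr1, Tgfbr2, Smad3 and Ski), and Smad2, Smad4, Smad7 and Skil had none.

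Tgfb1 (ENSMUSG00000002603, chromosome 7, 25687002 to 25705077, plus strand), which encodes the main TGF-β ligand of microglia, was the member that differed least between libraries 1 and 2. Its level was 547 CPM (497 to 600), 538 (521 to 556) and 462 (445 to 478) in libraries 1, 2 and 3. Library 3 was the lowest, and its interval did not reach those of the others. The ratio of library 3 to library 2 was 0.857 (0.817 to 0.899). In cells that had 2000 to 4000 UMIs before thinning, the levels were 549 (499 to 603), 581 (526 to 640) and 499 (449 to 552). There the interval of library 3 overlapped both others, and its ratio to library 2 was 0.858 (0.743 to 0.990). At least 1 Tgfb1 UMI was found in 65.0% of thinned cells (60.1 to 69.6%), 65.8% (64.2 to 67.3%) and 60.6% (58.9 to 62.3%) in libraries 1, 2 and 3. Without thinning, the shares were 66.7%, 94.4% and 90.3%, which follow the depth of the cells. The other TGF-β ligands were at or near 0: Tgfb2 had 0, 7 and 72 UMIs in all cells of libraries 1, 2 and 3, and Tgfb3 had 1 UMI in the whole matrix. At equal depth Tgfb2 was at 0.560 CPM in library 2 and 3.96 in library 3, and the 0 in library 1 allows up to 3.68, which is above the level of library 2 and just under that of library 3.

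**Figure D1:**
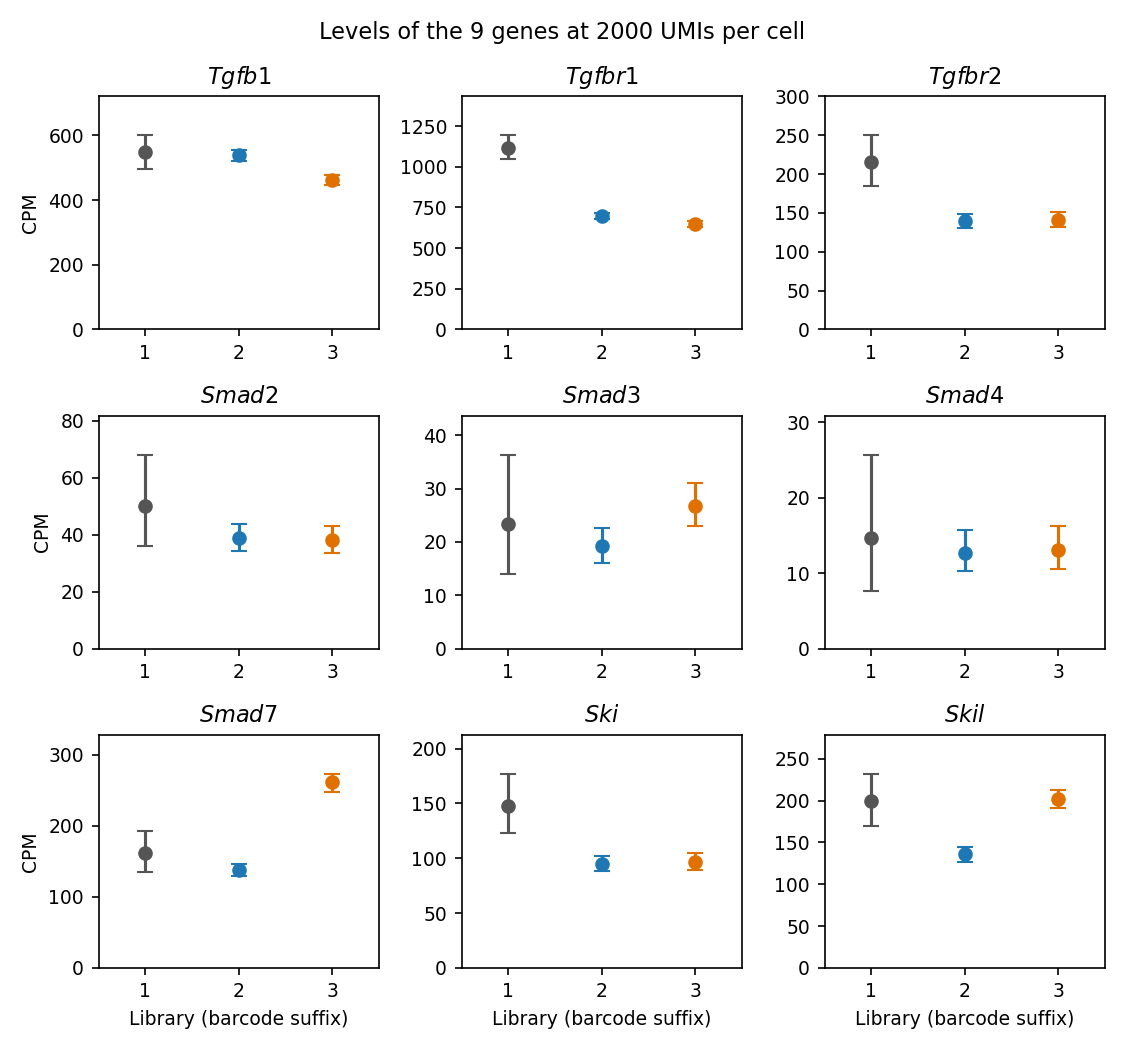
Levels of the 9 genes in CPM (vertical axes, each starting at 0) in libraries 1, 2 and 3 (horizontal axes), over cells thinned to 2000 UMIs. Points are library values and bars exact 95% Poisson intervals: Tgfbr1, Tgfbr2 and Ski are highest in library 1, Smad7 is highest in library 3, and Skil is lowest in library 2.

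Tgfbr1 (ENSMUSG00000007613, chromosome 4, 47353222 to 47414931, plus strand), the type I receptor kinase, was at 1119 CPM (1047 to 1194), 698 (679 to 718) and 646 (627 to 666) in libraries 1, 2 and 3. None of the 3 intervals overlapped, and library 1 was the highest by a wide margin. The ratio to library 1 was 0.624 (0.581 to 0.670) and 0.577 (0.537 to 0.621) in libraries 2 and 3. At equal depth, the difference showed in the share of cells with 2 or more UMIs as well as in detection. The shares below are relative to the UMIs kept after thinning and do not give the number of transcripts per cell. A Tgfbr1 UMI was found in 84.6% (80.7 to 87.9%) of library 1 cells, 73.6% (72.1 to 75.0%) of library 2 cells and 70.9% (69.3 to 72.5%) of library 3 cells, and 2 or more UMIs in 60.0%, 40.8% and 36.5%. Tgfbr1 also varied most from cell to cell in library 1, where its variance was 1.5 times its mean against a median of 1.02 over all genes, and 1 cell held 11 of its UMIs. Of all genes, 10% were above 1.18 in library 1 and above 1.05 in libraries 2 and 3. Genes at a level like that of Tgfbr1 were not compared.

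Tgfbr2 (ENSMUSG00000032440, chromosome 9, 116084293 to 116175360, minus strand), the ligand-binding type II receptor, was at 216 CPM (185 to 250), 139 (131 to 148) and 141 (132 to 151) in libraries 1, 2 and 3. Library 1 was again the highest and did not overlap the others, while libraries 2 and 3 overlapped almost fully. The ratio to library 1 was 0.646 (0.549 to 0.762) and 0.655 (0.557 to 0.774) in libraries 2 and 3. A Tgfbr2 UMI was found in 33.8%, 24.1% and 24.4% of thinned cells. Cells in which ligand and both receptors were all found made up 17.6% (14.1 to 21.7%) of library 1, 11.6% (10.5 to 12.7%) of library 2 and 10.6% (9.54 to 11.7%) of library 3. These joint shares move with the single shares of the 3 genes and are not a separate result.

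Thinning equalizes the UMIs per cell but not the cells that are compared, and the level of Tgfbr1 fell with the depth a cell had before thinning. In library 2, Tgfbr1 was at 838 CPM in cells of 2000 to 4000 UMIs, 712 in cells of 4000 to 8000 and 604 in deeper cells, and in library 3 the levels were 786, 642 and 540. Tgfbr2 showed no such slope, with levels of 132, 142 and 134 in library 2 and 140, 141 and 142 in library 3. In library 1, 399 of the 408 thinned cells had 2000 to 4000 UMIs. When this depth range alone was compared, with 399, 351 and 372 cells, the Tgfbr1 ratio to library 1 was 0.743 (0.668 to 0.825) and 0.697 (0.627 to 0.775) in libraries 2 and 3. These ratios were beyond counting error but within 1.5-fold. Within this range the median depth was still lower in library 1, at 2481 UMIs against 3513 and 3481, and the part of depth in the Tgfbr1 difference was not tested. The Tgfbr2 ratios in the same range were 0.622 (0.478 to 0.805) and 0.656 (0.509 to 0.842), further from 1 than those of Tgfbr1 but with overlapping intervals. The comparison by depth was chosen after the data were seen.

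**Figure D2:**
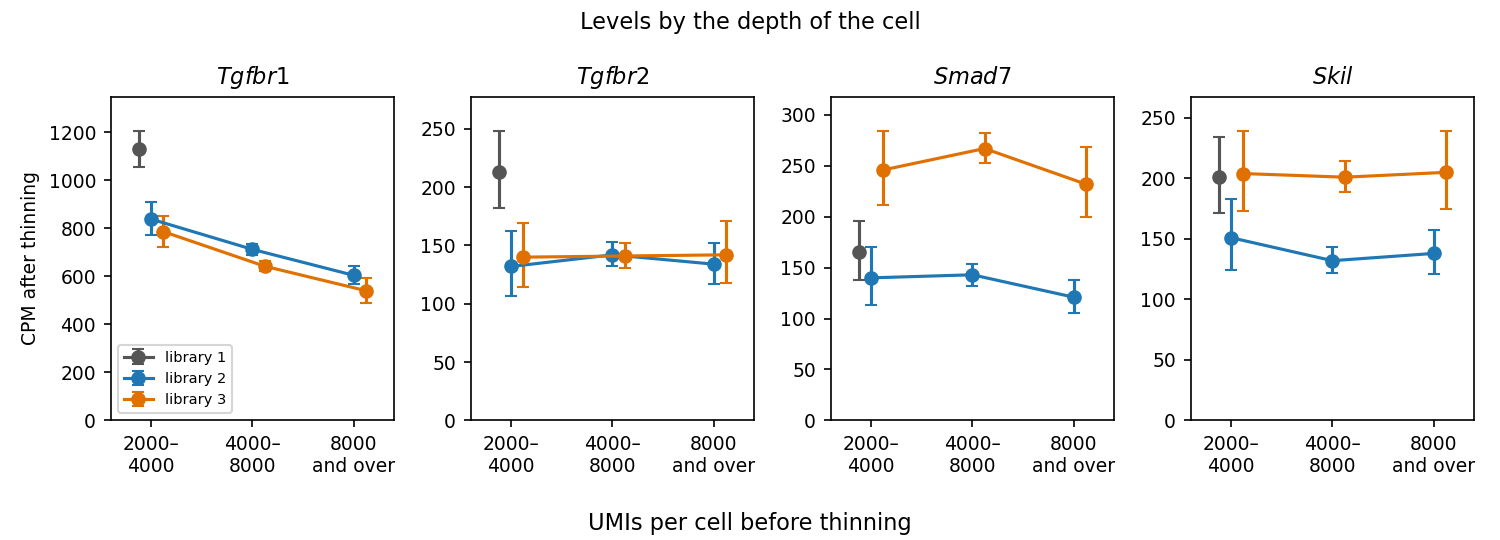
Levels after thinning, in CPM (vertical axes, starting at 0), of Tgfbr1, Tgfbr2, Smad7 and Skil in cells grouped by their UMIs before thinning (horizontal axes). Points are levels in libraries 1, 2 and 3 with exact 95% Poisson bars, and library 1 has a single point because only 9 of its thinned cells were deeper than 4000 UMIs. Tgfbr1 falls from left to right in libraries 2 and 3, whereas Smad7 stays higher in library 3 than in library 2 at each depth.

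Smad2 (ENSMUSG00000024563, chromosome 18, 76241580 to 76310963, plus strand), a receptor-activated Smad, was at 50.2 CPM (36.1 to 68.2), 38.8 (34.4 to 43.7) and 38.1 (33.5 to 43.1) in libraries 1, 2 and 3. The 3 intervals overlapped, and library 1 rested on 41 UMIs. Smad3 (ENSMUSG00000032402, chromosome 9, 63646767 to 63757994, minus strand), its partner, was at 23.3 (14.0 to 36.4), 19.2 (16.1 to 22.7) and 26.8 (23.0 to 31.1). Smad3 was higher in library 3 than in library 2, with a ratio of 1.40 (1.11 to 1.76), and the intervals of those libraries did not overlap. Its ratio over the full depth, without thinning, was larger than the counting error as well, with levels of 18.4 (16.8 to 20.2) and 27.1 (24.9 to 29.5). Against library 1, the Smad3 ratio of library 3 was 1.15 (0.715 to 1.96), and 1.75 (0.958 to 3.28) in cells of 2000 to 4000 UMIs, within counting error in both. In those cells the ratio of library 3 to library 2 was 1.39 (0.775 to 2.55), no longer beyond counting error. Smad4 (ENSMUSG00000024515, chromosome 18, 73639009 to 73703780, minus strand), the common partner of the activated Smads, was at 14.7 (7.60 to 25.7), 12.7 (10.3 to 15.7) and 13.1 (10.5 to 16.2), with no difference detectable at this depth. An annotated gene, AC132418.2, overlaps Smad4 on the opposite strand. A UMI of Smad2 was found in 9.80%, 7.59% and 7.34% of thinned cells, of Smad3 in 4.66%, 3.78% and 5.15%, and of Smad4 in 2.94%, 2.55% and 2.59%. No cell type lacking these genes was present in number, so the share that free RNA gives could not be measured.

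Smad7 (ENSMUSG00000025880, chromosome 18, 75367529 to 75395935, plus strand), the inhibitory Smad that recruits ubiquitin ligases to the receptor, was the member with the largest increase. It was at 162 CPM (135 to 192), 137 (129 to 146) and 261 (248 to 273) in libraries 1, 2 and 3. Library 3 was the highest and lay clear of the others, while libraries 1 and 2 overlapped. The ratio of library 3 was 1.61 to library 1 (1.35 to 1.94) and 1.90 to library 2 (1.75 to 2.05). These intervals do not cover the random draw of thinning. A second draw gave a smaller ratio to library 2, below the interval given here. A Smad7 UMI was found in 28.7% (24.3 to 33.3%), 24.0% (22.6 to 25.4%) and 39.5% (37.8 to 41.2%) of thinned cells, and 2 or more in 3.68%, 3.11% and 9.35%. Without thinning, library 3 was also the highest, at 252 CPM (245 to 259) against 156 (135 to 178) and 140 (135 to 144). In cells of 2000 to 4000 UMIs the ratio of library 3 to library 2 was 1.76 (1.37 to 2.28) and to library 1 was 1.49 (1.18 to 1.87), the latter just under 1.5-fold.

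Ski (ENSMUSG00000029050, chromosome 4, 155154075 to 155222592, minus strand) was at 148 CPM (123 to 177), 95.0 (88.0 to 102) and 96.7 (89.3 to 105) in libraries 1, 2 and 3. As for the receptors, library 1 was the highest and did not overlap the others. As for Tgfbr2 but not Tgfbr1, libraries 2 and 3 were alike within counting error, with a Ski ratio of 1.02 (0.912 to 1.14). Ski was at a ratio of 0.641 to library 1 (0.527 to 0.784) and 0.652 (0.536 to 0.799) in libraries 2 and 3. In cells of 2000 to 4000 UMIs these ratios were 0.554 (0.398 to 0.765) and 0.784 (0.588 to 1.04), so that the difference of library 3 was no longer beyond counting error there. A Ski UMI was found in 26.0%, 17.5% and 17.4% of thinned cells.

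Skil (ENSMUSG00000027660, chromosome 3, 31095058 to 31122577, plus strand), the other corepressor and, like Smad7, a known target of TGF-β, had another order. It was at 199 CPM (169 to 232), 136 (127 to 145) and 202 (191 to 213) in libraries 1, 2 and 3. Library 2 was the lowest and did not overlap the others, and libraries 1 and 3 could not be told apart, with a ratio of 1.02 (0.864 to 1.21). The ratio of library 3 to library 2 was 1.49 (1.37 to 1.62). In cells of 2000 to 4000 UMIs, Skil was at 201 CPM (171 to 234), 151 (124 to 183) and 204 (173 to 239). There the interval of library 2 overlapped both others. In those cells the ratio of library 2 to library 1 was 0.753 (0.584 to 0.969), and of library 3 to library 2 1.35 (1.05 to 1.75). A Skil UMI was found in 31.4% (26.9 to 36.1%), 24.0% (22.6 to 25.4%) and 32.2% (30.6 to 33.8%) of thinned cells.

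To set these ratios among those of all genes, the log2 ratio of levels (with a pseudocount of 1 CPM) was taken for the 8085 genes with a mean level of at least 10 CPM, which all 9 members passed. Of library 2 against library 1, 0 of 9 members were over 1.5-fold higher, where 12.3% of all genes were, and 3 of 9 (Tgfbr1, Tgfbr2 and Ski) were over 1.5-fold lower, where 16.4% of all genes were. Of library 3 against library 1, 1 of 9 was higher (Smad7), beside 11.5% of all genes, and 3 of 9 were lower (Tgfbr1, Tgfbr2 and Ski), beside 18.8%. Of library 3 against library 2, 1 of 9 was higher (Smad7), beside 3.45% of all genes, and 0 were lower, beside 5.15%. Libraries 2 and 3 share library 1 in the first comparisons, so that the same 3 genes were lower in both is not independent. Just inside the threshold were Skil in library 2 against library 1, with a ratio of 0.684, and Skil in library 3 against library 2, with 1.49.

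The median log2 ratio of the members was -0.36 for library 2 over library 1, -0.24 for library 3 over library 1 and 0.03 for library 3 over library 2, where the medians of all genes were -0.09, -0.09 and -0.02. Tgfbr1 stood at percentile 12.4 of all genes in library 2 over library 1 and 10.4 in library 3 over library 1, so that many genes were lower still in those comparisons. Smad7 stood at percentile 98.6 and Skil at 96.3 in library 3 over library 2, where few genes differed. Ski and Tgfbr2 were near the threshold: without thinning, Ski fell inside 1.5-fold against library 1 in both libraries, with log2 ratios of -0.57 and -0.49, and Tgfbr2 did so in library 3, with -0.51.

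**Figure D3:**
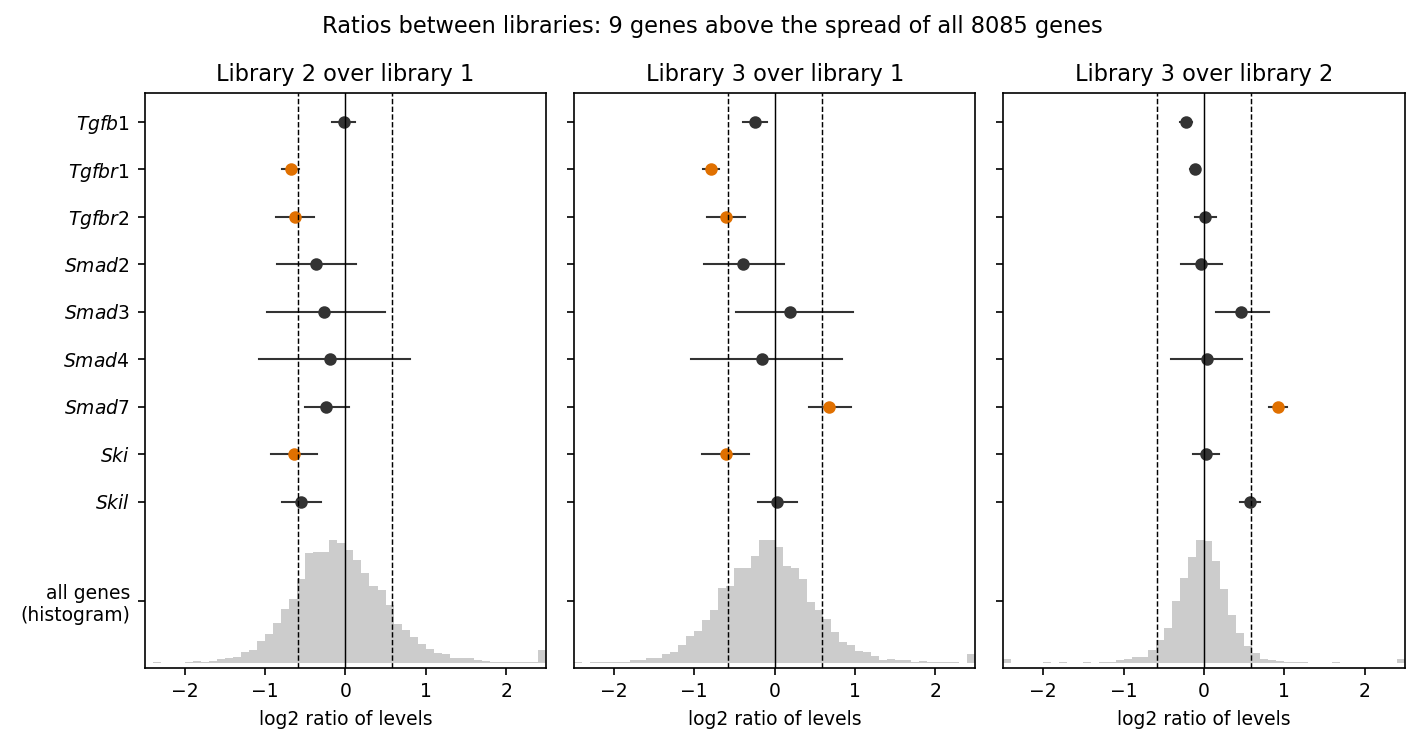
Log2 ratios of levels between libraries (horizontal axes) for the 9 genes, with points for the ratio, lines for the exact 95% interval, and a histogram of all 8085 genes at the bottom of each panel (scaled to its own peak, values beyond 2.5 placed in the end bins). Dashed lines mark 1.5-fold, and genes past it are drawn in orange: Tgfbr1, Tgfbr2 and Ski to the left in the panels against library 1, and Smad7 to the right in the panels of library 3.

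Among 44 other genes of the pathway, 25 passed the level filter. In library 2 against library 1, 6 of these were over 1.5-fold lower and 0 higher (24.0%, beside 16.4% of all genes lower), and in library 3 against library 1 again 6 were lower and 0 higher (24.0%, beside 18.8%). The genes were the same in both comparisons, which share library 1: Furin (the protease that cleaves the TGF-β precursor), the receptors Acvr1 and Bmpr2, the feedback gene Pmepa1, the ubiquitin ligase Smurf2 and the adaptor Tab1. Bmpr2, the type II receptor for bone morphogenetic proteins, was at 78.4 CPM (60.4 to 100), 32.9 (28.8 to 37.4) and 32.3 (28.1 to 36.9) in libraries 1, 2 and 3. Acvr1, a type I receptor of the same family, was at 20.8 (12.1 to 33.4), 9.25 (7.15 to 11.8) and 10.0 (7.77 to 12.8). Smurf2, which Smad7 brings to the receptor, was at 25.7 (15.9 to 39.3), 10.5 (8.26 to 13.2) and 13.9 (11.2 to 17.0). As with Tgfbr1 and Tgfbr2, library 1 was the highest for all 6, and for Bmpr2 its interval did not overlap the others. For Acvr1 and Smurf2 it overlapped that of library 3. Unlike the 9 members, these genes were not compared in cells of like depth before thinning. In library 3 against library 2, 3 of 25 were higher, beside 3.45% of all genes, and 0 lower: Nrros, which anchors latent TGF-β1 on microglia (ratio 1.62, 1.51 to 1.74), the corepressor Tgif1 (1.81, 1.54 to 2.13) and the Smad phosphatase Ppm1a (1.66, 1.27 to 2.18). The median log2 ratio of the 25 genes was -0.42, -0.19 and 0.09 in the 3 comparisons.

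Of 22 genes listed as TGF-β targets, 16 passed the filter, and they did not move as 1 group. In library 2 against library 1, 4 of 16 were lower and 0 higher (25.0%, beside 16.4% of all genes lower). The same 4, P2ry12, Sall1, Gpr34 and Mertk, were lower in library 3 against library 1 (beside 18.8% of all genes), a comparison that shares library 1 with the first. All are microglia genes that depend on TGF-β. Gpr34, a lysophospholipid receptor, was at 1850 CPM (1758 to 1946), 825 (804 to 847) and 983 (959 to 1007) in libraries 1, 2 and 3. Sall1, a transcription factor of microglia identity, was at 195 (166 to 228), 97.4 (90.3 to 105) and 90.4 (83.3 to 98.0). Mertk, a receptor tyrosine kinase used in the uptake of dead cells, was at 275 (240 to 313), 143 (135 to 152) and 142 (133 to 151). Library 1 did not overlap the others for any of these 3 genes. The target genes, too, were not compared in cells of like depth before thinning. Other microglia genes on the same list went another way: Tmem119 was at 2732, 3454 and 3837 CPM, and Olfml3 at 1777, 2372 and 1962. Library 1 was thus not the highest for every gene of this kind.

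The targets that were higher were those of library 3. Against library 1 and against library 2, 2 of 16 were higher in library 3 (12.5%, beside 11.5% and 3.45% of all genes): Id2 (an inhibitor of basic helix-loop-helix factors) and Rhob (a small GTPase). Id2 was at 49.0 CPM (35.0 to 66.8), 54.1 (48.8 to 59.7) and 159 (150 to 169) in libraries 1, 2 and 3, and Rhob at 646 (592 to 703), 459 (444 to 475) and 1358 (1330 to 1387). Id1, on the same list, had 0 UMIs in all cells of library 1, 248 in library 2 and 139 in library 3, and did not pass the filter. At equal depth Id1 was at 9.39 CPM in library 2 and 7.76 in library 3, and the 0 in library 1 allows up to 3.68. The summed UMIs of the early genes, like the levels of Smad7, Id2 and Rhob, were highest in library 3. From library 1 to library 2 this sum was higher, though not for each early gene, whereas Rhob was lower. The part of the early genes in these values was not tested.

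Within a library, the members could be compared between cells called dividing (mitotic or replicating) and cells without signs of division at this depth. Thinned cells with UMIs of at least 2 of 20 mitosis genes were called mitotic, and those with at least 3 of 15 replication genes and fewer mitosis genes replicating. Cells with no mitosis gene and at most 1 replication gene were called other, and the rest were set aside. Library 2 held 1333 mitotic cells (37.3%) and 238 replicating cells (6.67%), with 687 other cells and 1311 set aside. The number of mitosis genes per cell ran without a gap, with 970 cells at 0, 1266 at 1 and 706 at 2, so the classes are ranges and not types. The classes also depend on depth. Thinned to 4000 UMIs, library 2 had 2585 dividing and 105 other cells, and Seurat's phases gave 2721 and 848. Cells called other may thus include dividing cells whose genes were not found. Cells called dividing may include non-dividing cells with stray UMIs of these genes, which was not tested. Mixing of the classes would bring ratios between them closer to 1. Library 1 had 3 dividing cells and was not compared.

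No member differed beyond counting error between dividing and other cells of library 2, and for Smad2, Smad3 and Smad4 the counts were too few to bound the difference at 1.5-fold. Tgfb1 was at 529 CPM in dividing and 553 in other cells, with a ratio of 0.957 (0.878 to 1.04). Tgfbr1 was at 669 and 710 (0.942, 0.873 to 1.02), and Tgfbr2 at 135 and 149 (0.902, 0.762 to 1.07). Both receptors were slightly lower in dividing cells but within counting error. Smad2 was at 37.6 and 29.1 (1.29, 0.894 to 1.90), Smad3 at 19.1 and 24.7 (0.772, 0.499 to 1.21) and Smad4 at 14.6 and 12.4 (1.18, 0.666 to 2.20), the widest intervals of the set. Smad7 was at 132 and 130 (1.01, 0.849 to 1.21), Ski at 98.0 and 92.4 (1.06, 0.860 to 1.31) and Skil at 134 and 141 (0.947, 0.797 to 1.13). All 9 intervals included 1, and those of Tgfb1, Tgfbr1, Tgfbr2, Smad7, Ski and Skil lay within 1.5-fold in either direction. These bounds hold for the classes as called and not for dividing against truly non-dividing cells. When dividing cells needed at least 4 mitosis genes (302 cells), 2 of the 9 log2 ratios left these intervals, Smad7 among them. Over 1.5-fold higher in dividing cells were 0 of 9 members, beside 4.12% of 8061 genes, and over 1.5-fold lower 0 of 9, beside 1.92%. Dividing cells were deeper before thinning, at a median of 6742 UMIs against 5765.

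Library 3 held 50 dividing cells, of which 42 were replicating, beside 2901 other cells. Smad7 was at 170 CPM in dividing and 267 in other cells of library 3, a ratio of 0.636 (0.369 to 1.02) that rested on 17 UMIs. The other ratios ran from 0.739 for Smad3 to 1.33 for Skil, and all intervals included 1. Of the 9 ratios, 3 (Smad2, Smad3 and Smad4) rested on 4 or fewer UMIs in the dividing cells.

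**Figure D4:**
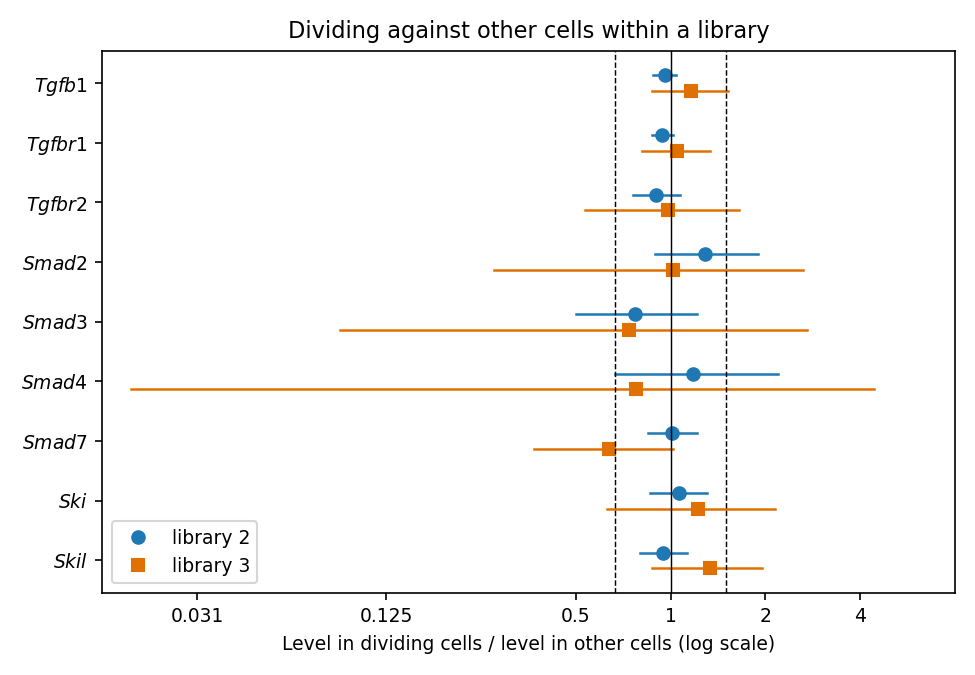
Ratio of the level in dividing cells to the level in other cells (horizontal axis, log scale) for each of the 9 genes, in library 2 (circles) and library 3 (squares). Lines are exact 95% intervals and dashed lines mark 1.5-fold: all intervals of library 2 include 1, and those of library 3, with 50 dividing cells, are wider.

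Because library 3 was marked by early genes, its cells were ranked by their UMIs of the 12 early genes and split into 3 equal parts, and the members were compared between the highest and the lowest part. These held 1094 cells each, with means of 53.0 and 21.7 early-gene UMIs. Skil was at 177 CPM (160 to 195) in the lowest part and 228 (208 to 249) in the highest, a ratio of 1.29 (1.13 to 1.48). Smad7 was at 238 (218 to 259) and 282 (261 to 306), a ratio of 1.19 (1.05 to 1.34). Smad7 and Skil were thus higher in cells with more early-gene UMIs, by more than counting error, and stood at percentiles 87.4 and 93.3 of 8075 genes ranked by this ratio, whose median log2 ratio was -0.06. Tgfbr1 went from 693 (659 to 729) to 610 (577 to 643), a ratio of 0.879 (0.816 to 0.947) at percentile 29.3, so that many genes were lower still. The cells of the highest part were deeper before thinning, at a median of 6040 UMIs against 5015. The part of depth in these ratios was not tested. Over the 3 depth ranges of library 3, Tgfbr1 fell with depth. Smad7 and Skil showed no steady slope with depth in library 3, at 246, 267 and 232 and at 204, 201 and 205 CPM over the 3 depth ranges. The other 6 members had intervals that included 1.

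In library 2, where the early genes were low in all cells (means of 1.18 and 5.64 UMIs in the lowest and highest part of 1189 cells each), Smad7 had a ratio of 0.935 (0.799 to 1.09) and Skil of 1.10 (0.941 to 1.29). Tgfbr1 was lower in the highest part there too, at 0.917 (0.856 to 0.982) and percentile 24.4, with median depths of 6221 and 5886 UMIs. Whether the ratios differed between libraries 2 and 3 was not tested, nor was the part of depth in those of library 2.

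**Figure D5:**
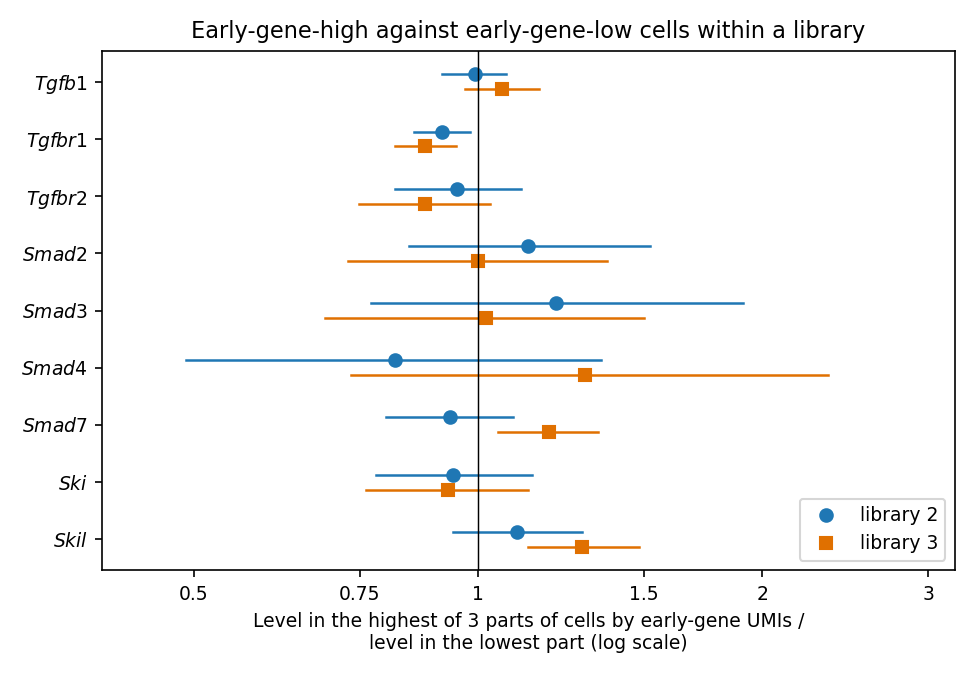
Ratio of the level in the highest of 3 equal parts of the cells, ranked by early-gene UMIs, to that in the lowest (horizontal axis, log scale) for each of the 9 genes, in library 2 (circles) and library 3 (squares), with exact 95% intervals as lines. Skil and Smad7 lie above 1 in library 3, and Tgfbr1 lies below 1 in both libraries.

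Among themselves, the members were found in the same cells about as often as independence gives. Of the 36 pairs, 28, 35 and 35 had at least 5 expected cells with both genes in libraries 1, 2 and 3. Over these pairs, the median ratio of observed to expected cells was 1.01 in each library. Tgfbr1 and Tgfbr2 were found together in 626 cells of library 2 where 634 were expected, a ratio of 0.988 (0.912 to 1.07), and in 548 of library 3 where 568 were expected (0.965, 0.886 to 1.05). At this depth, the receptors of a complex were thus not found together more often than their single shares give. With few UMIs per gene in a cell, such counts can miss joint variation, which was not tested. Of the 36 pairs in each library, 1 interval lay above 1 in all (Smad3 and Smad7 in library 1, 11 cells, 2.02, 1.01 to 3.61) and 1 below (Smad7 and Skil in library 2, 168 cells, 0.818, 0.699 to 0.952). In library 3, where both Smad7 and Skil were high, they shared 408 cells against 418 expected (0.976, 0.884 to 1.08). Likeness over cells was looked for among the 3151 genes of library 2 and the 3161 of library 3 with a level of at least 50 CPM. Of these, none had a pattern over cells with a correlation of at least 0.1 with a member, except the nuclear RNA Malat1 with Tgfbr1 in library 2 (r = 0.137 over 3569 cells), too weak to be read as a likeness. Like Tgfbr1, Malat1 fell with depth before thinning in library 2, at 48359, 43009 and 33166 CPM over the 3 depth ranges. The part of depth in this correlation was not tested. Library 1 was searched too, with 3349 genes over only 408 cells. There the 3 highest correlations of each member all reached 0.1. They ran from 0.146 (Tgfb1 with Yae1d1) to 0.226 (Smad4 with Ebpl), and whether they exceed counting error was not tested.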

How the data were processed

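Raw UMI counts of 27998 genes in 7522 cells, not normalized, were deposited by the authors as a single matrix that joins 3 libraries. The submitters' processing notes name Cell Ranger 2.1.1 and the build mm10. Version 3.1 of the capture kit is named in the labels and version 3 in the methods. How cells were called, and whether depth was equalized at joining, is not given in the sources used here. 

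Doublets were excluded in the sort, before the cells were captured. Doublets among the deposited cells were not called or removed here. All deposited cells were used, each thinned to 2000 UMIs without replacement (seed 1), which left out 201, 22 and 38 shallower cells of libraries 1, 2 and 3. Thinning lowers the share of cells in which a gene is found, so shares hold for this depth only. Log2 ratios used a pseudocount of 1 and a minimum mean level of 10 CPM. Intervals were exact Poisson, conditional binomial or Clopper-Pearson intervals at 95%, and a count of 0 was given a limit of 3. Cell classes compared needed at least 50 dividing cells. Ratio, interval and thinning steps were tested on simulated data.

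The members and gene lists were chosen with earlier results of these data known. Of the pathway and target lists, the 8 genes with the largest log2 ratio between any libraries were to be named, and others named in the text were chosen after their values were seen. 1 listed target is not reported here and was left out of the list's counts. Genes like a member were to be named where Pearson's r of log2(1 + UMIs) was at least 0.1. For library 1 only the ends of the range were named. Gene positions were taken from GENCODE M21 (GRCm38) through the Ensembl identifiers of all 9 members, and promoters from RefSeq on GRCm38.p6. Alternatives changed the depth, draw, cell filter, threshold, scaling and cell classes, the last also by Seurat's CellCycleScoring. Analyses ran in R 4.3.3 with Seurat 5.3.0 and in Python 3.11.15 with pandas 2.3.3, scipy 1.17.1 and numpy 2.4.6.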

Additional observations from a re-analysis of the deposited data

How the results depend on the processing

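No paired analysis was possible because each group is 1 library and no suffix is tied to a group. At a 2-fold threshold the count of members lower in library 2 than library 1 was 0, lower in library 3 than library 1 was 0, and higher in library 3 than library 1 and library 2 was 0 and 0. The shares of all genes in these 4 comparisons were 4.13%, 5.49%, 3.93% and 1.25%. Centred on the median of all genes, 1 member (Tgfbr1) was lower in library 2 and 1 in library 3 than in library 1, and 2 (Smad7 and Skil) were higher in library 3 than in library 2. Beside these stood 12.7%, 14.7% and 3.90% of all genes. Without thinning, 1 (Tgfbr1) was lower in library 3 than in library 1, beside 18.1% of all genes. Over cells of 2000 to 4000 UMIs also 1 (Tgfbr2) was lower, beside 18.5%. The 1 member higher in library 3 than in library 1 in those cells was Smad3 in place of Smad7, beside 12.2% of all genes. Of 243 log2 ratios of members between libraries under other settings, 222 stayed within the counting interval of the value reported. Of 189 shares of cells, 97 did not, since shares move with depth and with a demand for 2 UMIs. Thinned to 4000 UMIs, library 1 kept 9 cells, and the log2 ratio of Ski to library 1 turned to 0.19 in library 2 and 0.27 in library 3. A draw with seed 2 gave Smad7 a log2 ratio of 0.75 in library 3 over library 2, where the draw used gave 0.92. Of 27 member ratios between libraries, this was the 1 that left its counting interval under that draw. Smad7 in dividing against other cells of library 2 was at -0.39 with at least 4 mitosis genes, beside 0.02, and Smad2 at -0.30 when thinned to 4000 UMIs, beside 0.36. Smad7 between the highest and lowest 10% of library 3 cells by early genes was at 0.55, beside 0.25 between the highest and lowest of 3 parts. Centring moved the share of calls over all genes that were higher from 42.8% to 54.7% for library 2 over 1 and from 38.1% to 49.7% for library 3 over 1. The causes of these changes, beyond the fewer cells or stricter thresholds named, were not tested.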
